A study of Mus musculus with 16 samples.

Results

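The genes described here are a set of neuronal adhesion and scaffold genes of the synapse, measured in dissected mouse hippocampus. They comprise the neurexins Nrxn2 and Nrxn3, the neuroligins Nlgn1, Nlgn2 and Nlgn3, the gephyrin gene Gphn, and the IQSEC family Iqsec1, Iqsec2 and Iqsec3. Members were taken by gene symbol, and all 9 were found among the 24972 genes listed for each library.

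Neurexins are presynaptic adhesion proteins, and neuroligins are their partners in the postsynaptic membrane. NLGN1 is concentrated at excitatory synapses, NLGN2 at inhibitory synapses, and NLGN3 is found at both. At inhibitory synapses NLGN2 binds gephyrin, the scaffold that anchors GABA-A and glycine receptors. The IQSEC proteins are exchange factors that load Arf GTPases with GTP. IQSEC1 and IQSEC2 belong to the excitatory postsynaptic density, whereas IQSEC3 binds gephyrin and sits at inhibitory synapses. Each neurexin gene makes long and short proteins from separate promoters, and the files give 1 value per gene, so these forms cannot be told apart here.

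RNA was sequenced from pieces dissected out of the dorsal hippocampus and pooled per animal by subregion. All mice were adults of the ArcCreERT2::eYFPflx line on a C57BL/6 background, in which the Arc promoter drives a tamoxifen-dependent Cre, so the trained and the untrained groups carry the same alleles. Trained mice had learned to avoid a shock zone in a rotating arena, the active place avoidance task. Untrained mice were placed in the same arena with the shock off, and tissue was taken after a retention test in both groups. The 16 libraries come from 3 trained and 3 untrained animals, with 3 trained and 3 untrained libraries labelled CA1, 3 and 2 labelled CA3, and 3 and 2 labelled DG (dentate gyrus). The labels number the animals, so by label the libraries of a group are separate mice and a number recurs across subregions. Each value is an estimated count that was put on a common scale across libraries before deposit.

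Several properties of the libraries move with the groups. The number of genes listed at 0 was 7567 to 9759 in 7 libraries and 3124 to 5944 in the other 9. The group of 7 held every trained library of CA1, both libraries of untrained DG, and replicates 1 and 2 of trained CA3, so this split and training cannot be told apart within CA1 or within DG. Depth, approximated from the spacing of the lowest values, lay between 2550000 and 14860000 reads. Xist, the RNA that coats the inactive X chromosome in female cells, had a value of 7601 to 19592 in the 9 trained libraries and of 25.5 to 52.4 in 6 untrained libraries, although the study's methods place both sexes in each group. In untrained CA3 replicate 1 the Xist value was instead 10588, against 26.1 and 25.5 in the CA1 and DG libraries labelled as the same animal. The Xist level and training therefore cannot be told apart within CA1 or DG. The Y-linked gene Ddx3y had a value of 201.4 in untrained CA3 replicate 1 and of 255.2 in trained DG replicate 3. It was at 448.4 to 552.8 in the other untrained libraries and at 1.7 to 100.6 in the other trained ones. Why these libraries held Xist together with an intermediate Ddx3y value was not tested.

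Subregion markers separated the labels in part. Prox1, a defining transcription factor of dentate granule cells, had values of 3052 to 3861 in CA1, 2690 to 4786 in CA3 and 3292 to 4183 in DG. The summed level of 5 granule cell markers was 5493 to 6837 in CA1, 5136 to 8640 in CA3 and 6122 to 7879 in DG. The 5 CA1 pyramidal markers summed to 3222 to 5210 in untrained CA1, but to 1599 to 1986 in trained CA1, a range that overlaps the 1343 to 2106 of DG and the 921.8 to 1613 of CA3. Averaged over training, 4 of the 5 CA1 markers were called higher in CA1 than in CA3 (list median 1.25) and none in CA1 against DG (list median 0.65). The 5 CA3 markers summed to 1420 to 1560 in untrained CA1 and to 2013 to 2135 in trained CA1, and they were at 1844 to 2786 in CA3 and 2107 to 2369 in DG. Of these 5, 2 were called lower in CA1 than in CA3, 3 were called lower in CA1 than in DG, and none was called between CA3 and DG. Between trained and untrained CA1, 2 of the 5 CA1 markers were called lower, and 3 of the 5 CA3 markers were called higher with 1 called lower. The 5 astrocyte markers summed to 9548 to 9908 in trained and 10280 to 10710 in untrained CA1, with 1 of the 5 called lower, the water channel gene Aqp4 (-0.35, standard error 0.060, adjusted p = 0.00149). In CA3 the astrocyte sums were 8688 to 9640 in trained and 9862 to 10890 in untrained libraries, with none of the 5 called. Within DG the granule cell sums were 6122 to 6487 in trained and 7324 to 7879 in untrained libraries, and 1 of the 5 markers was called lower, Prox1 (-0.31, standard error 0.056, adjusted p = 0.00965). The median log2 fold change of this list in DG was -0.04, and 2 of the 5 markers had a positive one. Of 3 endothelial markers 1 was called lower in trained DG, the receptor gene Flt1 (-0.94, standard error 0.130, adjusted p = 0.00142). In CA3, 1 of 4 choroid plexus markers was called lower. The 8 interneuron markers, which mark the cells that make GABA, summed to 3338 to 4106 in every library, and 1 of the 8 was called higher in CA3. In DG they summed to 3928 to 4075 in trained and 3504 to 3885 in untrained libraries, with none called. The 5 oligodendrocyte markers summed to 11950 to 13110 in trained and 13780 to 17250 in untrained DG, also with none called. In what follows CA1, CA3 and DG mean the libraries with that label, and markers of other cell types moved with training under each of the 3 labels. Their part in the results below was not tested.

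**Figure D1:**
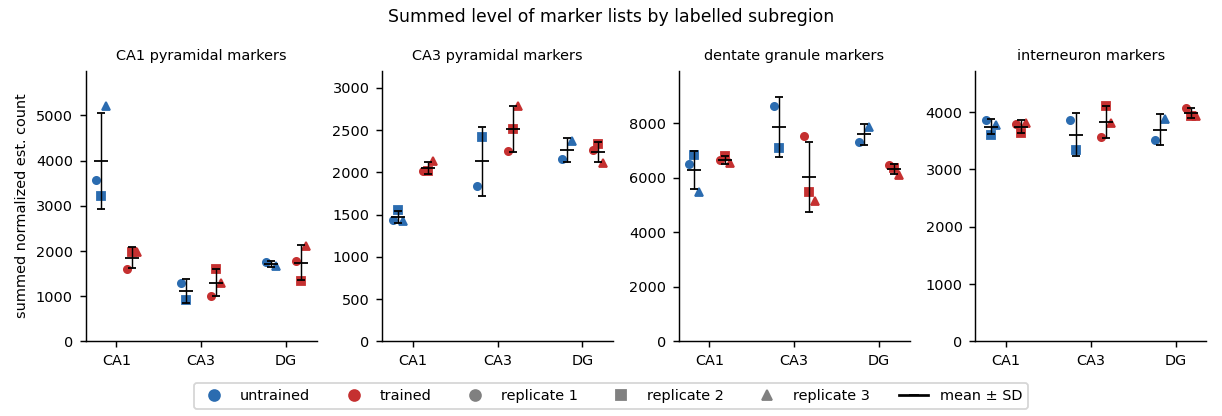
Summed normalized estimated count of 4 marker lists (vertical axis, from 0) in each library, by labelled subregion, for untrained (blue) and trained (red) mice, with symbols for the replicate and black bars for mean ± SD. The CA1 marker sum of untrained CA1 (3222 to 5210) lies above that of trained CA1 (1599 to 1986), and granule cell markers are at a similar level under all 3 labels.

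The training difference of every gene was estimated with limma on log2(value + 2), and a gene was called where the Benjamini-Hochberg adjusted p was under 0.05 over all genes tested. All 9 genes passed the filter on low values in each comparison, since their lowest value in any library was 533.8. In bulk tissue, fewer cells of a type and less RNA per cell cannot be told apart. In CA1, 2 of the 9 genes were called, Nrxn2 and Iqsec3, both higher in trained mice. There, 5.23% of the 13588 genes tested were called and 3.53% were called higher. In CA3, Nrxn2, Nlgn2 and Iqsec3 were called higher, 3 of 9, where 0.852% of 13848 genes were called and 0.737% were called higher. In DG, none of the 9 was called by limma and 1 had an unadjusted p under 0.05, with 3.39% of 13935 genes called. Over all subregions together, Nrxn2 and Iqsec3 were called higher, where 10.3% of 14673 genes were called and 6.28% were called higher. The combined comparison uses the same 16 libraries as the 3 others and treats libraries of one animal as independent.

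The median log2 fold change over the 9 genes was 0.13 in CA1, 0.22 in CA3, 0.02 in DG and 0.11 in the combined comparison, while the median over all genes tested lay between -0.01 and 0.00. The sign was positive for 8 of the 9 genes in CA1, 8 in CA3 and 6 in DG.

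**Figure D2:**
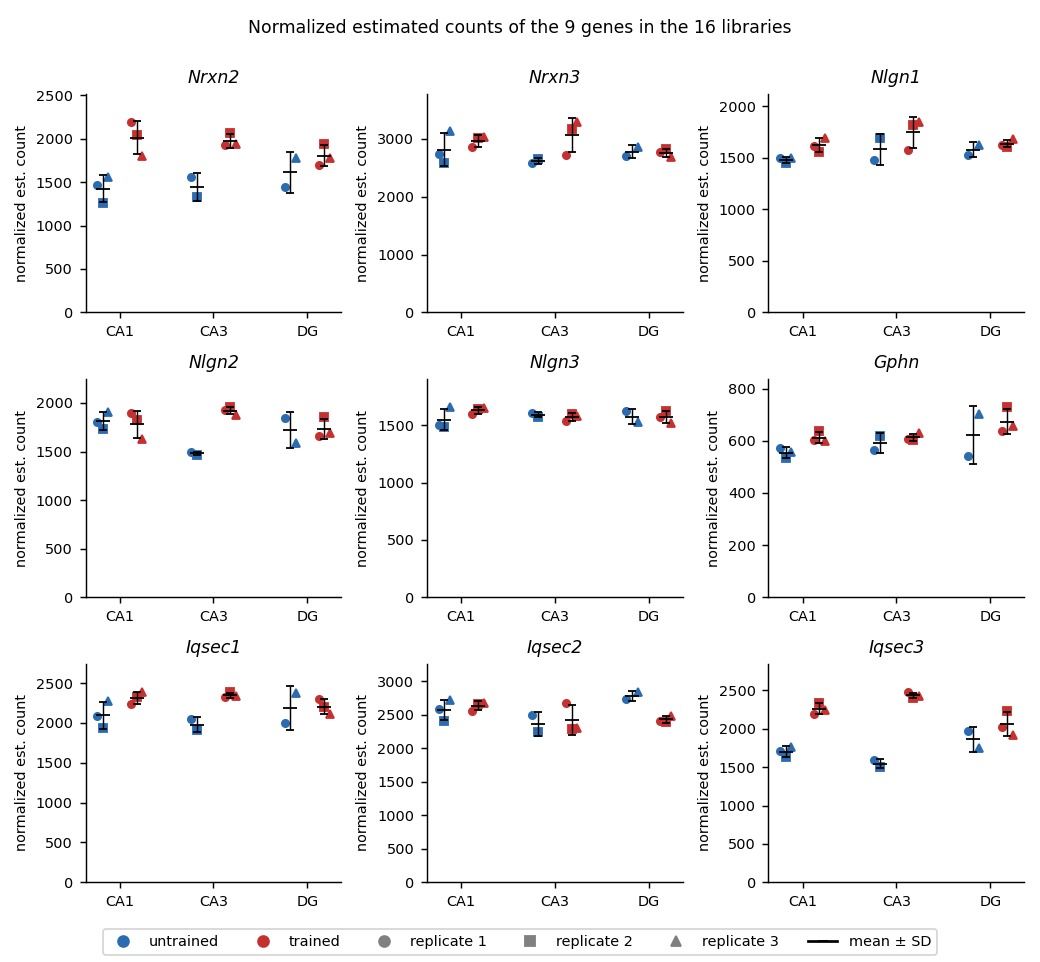
Normalized estimated counts (vertical axis, from 0) of the 9 genes in each of the 16 libraries, by labelled subregion, for untrained (blue) and trained (red) mice, with symbols for the replicate and black bars for mean ± SD. Trained and untrained libraries separate for the called genes, Nrxn2 and Iqsec3 in CA1 and CA3 and Nlgn2 in CA3. They also separate for genes that were not called, Nlgn1 and Gphn in CA1, Nrxn3 and Iqsec1 in CA3 and Iqsec2 in DG. The Nlgn3 values stay between 1488 and 1657.

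**Figure D3:**
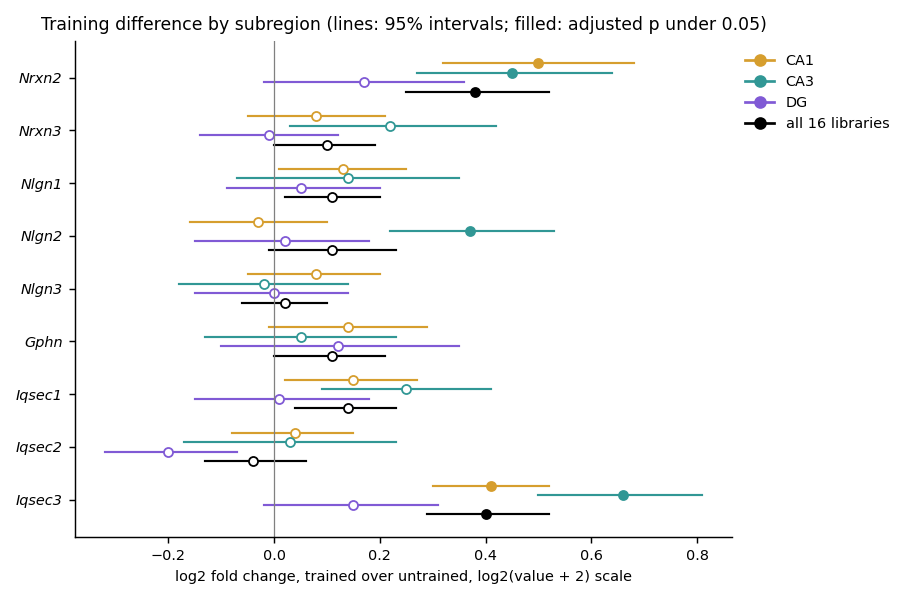
Log2 fold change of trained over untrained mice on the log2(value + 2) scale (horizontal axis) for each gene, with lines for 95% confidence intervals and filled points for an adjusted p under 0.05. Iqsec3 in CA3 lies farthest from 0 at 0.66, and no DG point is filled.

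Nrxn2 encodes a presynaptic neurexin and lies on the plus strand of mouse chromosome 19 (GRCm38, 6418731 to 6544169). In CA1 its values were 1461, 1259 and 1557 in untrained mice and 2189, 2040 and 1806 in trained mice. The lowest trained library was thus above the highest untrained one. The log2 fold change was 0.50 (standard error 0.084, adjusted p = 0.00385), a rise of 41.2%. In CA3, the untrained libraries had values of 1555 and 1331, and the trained ones had 1926, 2061 and 1934. These groups did not overlap either, and the log2 fold change was 0.45 (standard error 0.085, adjusted p = 0.0385).

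The DG values of Nrxn2 were 1443 and 1782 in untrained and 1701, 1939 and 1775 in trained mice. These ranges overlap, and the log2 fold change of 0.17 (95% interval -0.02 to 0.36) did not pass (adjusted p = 0.315). Without untrained animal 3, whose DG value was the higher of the untrained pair, it was 0.32 with an adjusted p of 0.0105, and without untrained animal 1, the lower of the pair, it was 0.02. The Nrxn2 call in CA3 rested on single libraries. Its adjusted p was 0.0742 without untrained replicate 1, 0.17 without untrained replicate 2, 0.269 without trained replicate 2 and 0.0545 without trained replicate 3, with log2 fold changes of 0.34 to 0.57. With the GC and length trend removed the fold change was 0.23 (adjusted p = 0.232), and the call was lost. A subregion left with 1 untrained library is tested on the assumption that it varies like the trained ones. Over all 16 libraries Nrxn2 averaged 1930 ± 153 (SD) over the 9 trained and 1484 ± 171 over the 7 untrained libraries, and the log2 fold change was 0.38 (standard error 0.064, adjusted p = 0.00102).

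Nrxn3, a second neurexin gene, lies on chromosome 12 (88722876 to 90334935, plus strand) and did not pass in any training comparison. In CA3 its values were 2576 and 2653 in untrained and 2728, 3164 and 3288 in trained mice. The trained libraries were all higher, with a log2 fold change of 0.22 (standard error 0.089, adjusted p = 0.258). Without trained replicate 1, the trained library nearest to the untrained ones, the log2 fold change was 0.30 (adjusted p = 0.0365), and over all leave-outs it lay between 0.17 and 0.30. In CA1 the untrained values of 2738, 2580 and 3132 enclosed the trained values of 2852, 3018 and 3026. The DG values of Nrxn3 ran from 2689 to 2856, and the log2 fold change there was -0.01 (95% interval -0.14 to 0.12). In the combined comparison the log2 fold change of Nrxn3 was 0.10 (adjusted p = 0.205), and it was 0.15 without untrained animal 3 (adjusted p = 0.0304) but 0.06 without untrained animal 2.

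Nlgn2, the neuroligin of inhibitory synapses, lies on the minus strand of chromosome 11 (GRCm38, 69823122 to 69837784). Of the 3 subregions, Nlgn2 was called in CA3. The CA3 values were 1494 and 1468 in untrained mice and 1929, 1956 and 1878 in trained mice. The 2 untrained values were the lowest Nlgn2 values of all 16 libraries, and the lowest trained CA3 library was at 1878. The log2 fold change in CA3 was 0.37 (standard error 0.070, adjusted p = 0.0385), or 29.7% higher in trained mice. In CA1 the values were 1806, 1728 and 1910 in untrained and 1894, 1823 and 1625 in trained mice. In DG they were 1849 and 1588 in untrained and 1663, 1852 and 1692 in trained mice. Both pairs of groups overlap, with log2 fold changes of -0.03 (95% interval -0.16 to 0.10) in CA1 and 0.02 (-0.15 to 0.18) in DG.

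Like Nrxn2, Nlgn2 lost its call in CA3 when single libraries were left out. The adjusted p was 0.251 without untrained replicate 1, 0.142 without untrained replicate 2, 0.277 without trained replicate 2 and 0.0555 without trained replicate 3, with log2 fold changes of 0.36 to 0.39. With the GC and length trend removed the fold change was 0.19 (adjusted p = 0.257), and the call was lost. Untrained replicate 1 is the library whose Xist value goes against its animal's other libraries. Its Nlgn2 value of 1494 was close to the 1468 of the other untrained CA3 library. Choroid plexus markers also moved with training in CA3. The 4 of them summed to 768.9 to 1077 in untrained and 229.7 to 307.7 in trained libraries, with 1 of the 4 called lower and none at 0 in all libraries of a group. Of the 8 interneuron markers, 1 was called higher in trained CA3, the neuropeptide gene Sst (log2 fold change 0.82, adjusted p = 0.0101), while their sum was 3338 to 3867 in untrained and 3562 to 4106 in trained libraries. Of the 8, 7 had a positive log2 fold change, with a median of 0.26 beside -0.01 over all genes. In the combined comparison 1 of the 8 was called higher, the vesicular GABA transporter gene Slc32a1 (0.35, adjusted p = 0.00489), which was at 0.50 in CA3 (adjusted p = 0.119). The part of either list in the difference was not tested.

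Nlgn1, the neuroligin of excitatory synapses, lies on chromosome 3 (25426215 to 26332460, minus strand). Its CA1 values of 1498, 1447 and 1493 in untrained and 1615, 1558 and 1692 in trained mice did not overlap. The log2 fold change of 0.13 (standard error 0.056) had an unadjusted limma p of 0.0296 and an adjusted p of 0.202, and so did not pass. In CA3 the untrained values of 1476 and 1689 overlapped the trained values of 1574, 1818 and 1844, and in DG the range was 1525 to 1678. Nlgn3, on chromosome X (101299168 to 101325963, plus strand), was the steadiest of the 9 genes. Its values lay between 1488 and 1657 in all libraries, a coefficient of variation of 3.4%. The log2 fold changes of Nlgn3 were 0.08 in CA1, -0.02 in CA3 and 0.00 in DG, where the 95% interval was -0.15 to 0.14. Although it is X-linked, its mean was 1590 ± 45.8 (SD, n = 9) in the trained libraries, all with high Xist, and 1569 ± 63.6 (SD, n = 7) in the untrained ones.

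Gphn encodes gephyrin and lies on the plus strand of chromosome 12 (GRCm38, 78226379 to 78684772). No training comparison called it. In CA1 the values were 572.7, 533.8 and 558.3 in untrained and 602.0, 636.0 and 598.6 in trained mice. The trained libraries were all above the untrained ones by a small margin, with a log2 fold change of 0.14 (95% interval -0.01 to 0.29, adjusted p = 0.312). In CA3 the untrained values of 565.1 and 619.6 enclosed 2 of the 3 trained values, which were 607.5, 601.6 and 629.6. The DG values were 543.3 and 701.0 in untrained and 636.6, 728.4 and 655.3 in trained mice. The 2 untrained DG libraries were thus further apart than any other pair of one group, and without the higher, untrained animal 3, Gphn was called (log2 fold change 0.31, adjusted p = 0.0425) against 0.12 (adjusted p = 0.572) with it. Without the lower, untrained animal 1, the sign turned and the log2 fold change was -0.06.

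Iqsec3 encodes the exchange factor that binds gephyrin, and lies on the minus strand of chromosome 6 (GRCm38, 121372933 to 121473678). It had the highest fold change of the 9 genes in CA3 and the smallest adjusted p in CA1, CA3 and the combined comparison. In CA1 its values were 1705, 1628 and 1768 in untrained and 2199, 2340 and 2240 in trained mice. In CA3 they were 1590 and 1502 in untrained and 2477, 2407 and 2424 in trained mice. In neither subregion did the groups overlap, and in CA3 the gap between the highest untrained and the lowest trained library exceeded the spread within either group. The log2 fold change was 0.41 in CA1 (standard error 0.054, adjusted p = 0.000112), a rise of 32.9%, and 0.66 in CA3 (standard error 0.071, adjusted p = 0.00497), a rise of 57.6%. By its unadjusted p, Iqsec3 ranked at place 47 among the genes tested in CA1 and at place 6 in CA3.

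In DG the Iqsec3 values were 1977 and 1745 in untrained and 2029, 2226 and 1921 in trained mice. The groups overlap, and the log2 fold change of 0.15 (95% interval -0.02 to 0.31) had an adjusted p of 0.315. The CA1 call for Iqsec3 held with each animal left out, with log2 fold changes of 0.38 to 0.44. The CA3 call was lost without trained replicate 2 (log2 fold change 0.66, adjusted p = 0.0669) and held without each of the others. Over all subregions Iqsec3 averaged 2251 ± 185 (SD) over the 9 trained and 1702 ± 153 over the 7 untrained libraries (log2 fold change 0.40, standard error 0.057, adjusted p = 0.000239).

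Iqsec1, an exchange factor of excitatory synapses on chromosome 6 (90656088 to 90988685, minus strand), did not pass in the main fit of any training comparison. Some alternative fits called it, as given here and further below. The values were 2082, 1934 and 2271 in untrained and 2236, 2321 and 2386 in trained CA1. In CA3 they were 2047 and 1913 in untrained and 2325, 2386 and 2338 in trained mice. The CA3 groups did not overlap and the CA1 groups did, with log2 fold changes of 0.25 (standard error 0.072, adjusted p = 0.135) and 0.15 (standard error 0.059, adjusted p = 0.181). Without untrained animal 3 the adjusted p of Iqsec1 was 0.0252 in CA1 (log2 fold change 0.21) and 0.00143 over all subregions (0.21), against 0.0578 over all subregions with all animals (0.14). Without untrained animal 2 the log2 fold change fell to 0.09 in CA1 and to 0.09 over all subregions. In DG the values ran from 1996 to 2380 and the log2 fold change was 0.01 (95% interval -0.15 to 0.18).

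Iqsec2, the X-linked family member of excitatory synapses (chromosome X, 152144268 to 152225236, plus strand), was the only one of the 9 genes whose trained libraries were all lower in a subregion. Its DG values were 2733 and 2838 in untrained and 2409, 2399 and 2486 in trained mice. The log2 fold change of -0.20 (standard error 0.061) had an unadjusted limma p of 0.00511 and an adjusted p of 0.0834, so it did not pass. In CA1 the values ran from 2413 to 2720 and in CA3 from 2243 to 2674, with overlapping groups in both and log2 fold changes of 0.04 (95% interval -0.08 to 0.15) and 0.03 (-0.17 to 0.23).

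Promoter sequence is shown for Iqsec3 and Nlgn2, which were both called in CA3, and for Gphn, their shared binding partner at the inhibitory synapse, which was not. Each runs from 250 bases before to 50 bases after the RefSeq start (build GRCm38.p6) and is written 5′ to 3′ on the strand of the gene, with GC boxes in capitals. A GC box here is GGGCGG on either strand, read as CCGCCC where it lies on the other strand, and it occurs in 35.7% of 32851 mouse promoters of the same length. The windows are chr6:121473629-121473928 (minus) for Iqsec3, chr11:69837735-69838034 (minus) for Nlgn2 and chr12:78226405-78226704 (plus) for Gphn.
Iqsec3: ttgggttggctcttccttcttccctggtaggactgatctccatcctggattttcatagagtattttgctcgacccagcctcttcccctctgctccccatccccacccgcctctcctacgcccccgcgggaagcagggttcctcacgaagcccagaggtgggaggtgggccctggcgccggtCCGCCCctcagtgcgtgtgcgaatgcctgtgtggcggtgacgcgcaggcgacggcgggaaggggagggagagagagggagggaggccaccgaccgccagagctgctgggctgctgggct
Nlgn2: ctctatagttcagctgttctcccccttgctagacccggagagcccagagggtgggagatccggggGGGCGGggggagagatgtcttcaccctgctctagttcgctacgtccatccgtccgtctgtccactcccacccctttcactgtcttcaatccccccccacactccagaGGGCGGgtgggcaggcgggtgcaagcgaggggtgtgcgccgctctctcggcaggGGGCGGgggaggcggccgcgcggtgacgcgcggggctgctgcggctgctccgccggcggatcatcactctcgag
Gphn: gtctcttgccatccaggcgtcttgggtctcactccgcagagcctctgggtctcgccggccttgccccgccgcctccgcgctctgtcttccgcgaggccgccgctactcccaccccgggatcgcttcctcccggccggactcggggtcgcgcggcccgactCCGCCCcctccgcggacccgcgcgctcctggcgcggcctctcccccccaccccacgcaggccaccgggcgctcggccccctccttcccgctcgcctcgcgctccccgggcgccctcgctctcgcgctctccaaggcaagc
Iqsec3 has 1 GC box, Nlgn2 has 3 and Gphn has 1, and the GC content of the windows is 66.0%, 68.7% and 77.0%, against a median of 52.7% over all promoters. The table held 12 promoter entries for 7 of the 9 genes, with none for Nrxn2 or Nlgn3. The cyclic AMP response element TGACGTCA, found in 1.79% of all promoters, and the EGR1 element GCGTGGGCG, found in 0.612%, were searched on both strands and were in none of the 12.

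GC content moved with training in CA3, and transcript length did in all 3 subregions. The slope of a library's log2 values on the GC content of transcripts, per 10 percentage points, was 0.04 to 0.07 in the 3 trained and -0.08 to -0.07 in the 2 untrained CA3 libraries. In CA1 it was -0.01 to 0.06 in trained and -0.09 to 0.01 in untrained libraries, and in DG 0.00 to 0.04 and 0.00. The slope on transcript length, per doubling, was -0.088 to -0.038 in trained and 0.007 to 0.050 in untrained CA1 libraries. It was -0.022 to -0.004 against 0.020 to 0.060 in CA3 and -0.037 to 0.005 against 0.015 to 0.080 in DG, so that longer transcripts had relatively lower values in trained libraries and the groups did not overlap. The longest transcript of Gphn exceeds those of 66.4% of genes, and those of the other 8 genes exceed 87.7% (Nlgn2) to 99.0% (Nlgn1). The transcripts of Nrxn2 (62.4% GC, above 98.1% of genes) and Nlgn2 (60.7%, above 96.5%) are GC-rich, that of Iqsec3 (53.5%) less so, and that of Nlgn1 is the poorest of the 9 (38.9%). After the dependence of the values on GC content and length was taken out library by library, the CA3 log2 fold change of Nrxn2 fell from 0.45 to 0.23 (adjusted p = 0.232) and that of Nlgn2 from 0.37 to 0.19 (adjusted p = 0.257), so neither was called. Iqsec3 was still called in CA3 and CA1, and Nrxn2 in CA1. In CA1, Iqsec1 was then called as well (log2 fold change 0.18, adjusted p = 0.0444). Of all genes, 0.205% were then called in CA3, 6.28% in CA1 and 9.7% in the combined comparison. In the combined comparison 6 of the 9 genes were called after this step, with Nrxn3 at 0.16 (adjusted p = 0.027), Nlgn1 at 0.18 (0.0108) and Iqsec1 at 0.18 (0.0114) higher and Iqsec2 at -0.11 (0.0474) lower.

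**Figure D4:**
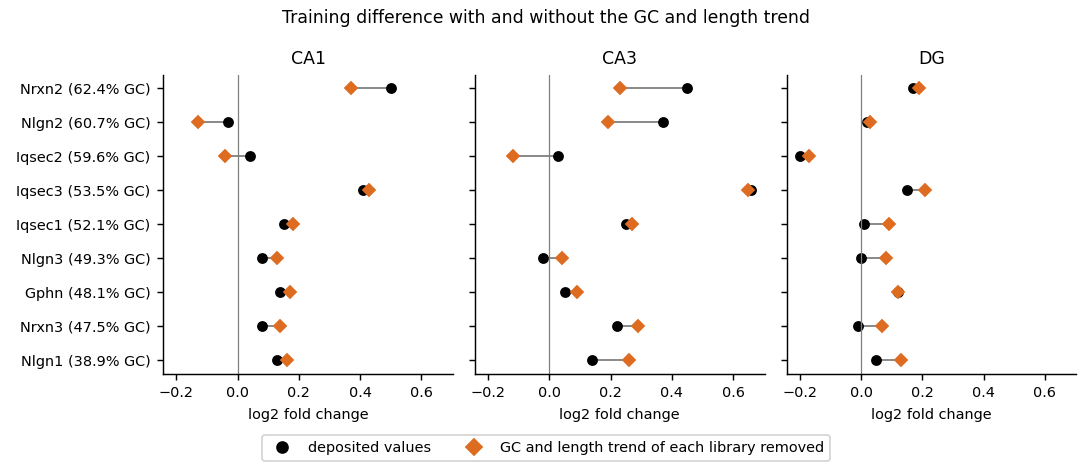
Log2 fold change of trained over untrained mice (horizontal axis) for each gene, ordered by the GC content of its longest transcript, from the deposited values (black) and after the dependence on GC content and length was taken out library by library (orange). In CA3 the Nrxn2 value moves from 0.45 to 0.23 and the Nlgn2 value from 0.37 to 0.19, while that of Iqsec3 stays above 0.6.

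Because Xist separated trained from untrained libraries almost completely, the combined comparison was repeated with the difference between Y-linked genes and Xist as a covariate. The log2 fold change was then 0.28 for Nrxn2 (adjusted p = 0.513) and 0.43 for Iqsec3 (adjusted p = 0.209). Neither was called, and limma called 0 of all genes, with 1702 at an unadjusted p under 0.05. Since the covariate nearly follows training, this fit can hardly separate them, and nothing is concluded from the lost calls. A term for the 7 libraries with many genes at 0 left both called, at 0.34 (adjusted p = 0.000895) for Nrxn2 and 0.36 (adjusted p = 0.000119) for Iqsec3. Without untrained CA3 replicate 1 and trained DG replicate 3, and with no covariate, the values were 0.42 (adjusted p = 0.00296) for Nrxn2 and 0.41 (adjusted p = 0.000224) for Iqsec3. That DG library had the lowest Xist value of the trained libraries. With untrained CA3 replicate 1 left out, Xist separates trained from untrained libraries completely. This last fit therefore cannot tell the Xist level and training apart.

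Whether the training difference itself differed between subregions was tested as an interaction in a fit of all 6 groups. Between CA3 and DG, the Iqsec3 difference was larger in CA3 by 0.51 on the log2 scale (standard error 0.100, 95% interval 0.30 to 0.72, adjusted p = 0.0346), where 0.164% of genes were called. It was the 1 member of 9 called in any of the 3 interactions. That call was lost without untrained animal 1 (0.46, adjusted p = 0.187), untrained animal 2 (0.47, 0.139), trained animal 1 (0.49, 0.131), trained animal 2 (0.58, 0.112), trained animal 3 (0.47, 0.059) and without untrained CA3 replicate 1 alone (0.55, 0.0648). Between CA1 and DG, where 2.75% of genes were called, the Iqsec3 difference was larger in CA1 by 0.26 (95% interval 0.07 to 0.46, adjusted p = 0.128), with 0.38 without untrained animal 3 (adjusted p = 0.0484) and 0.18 without untrained animal 1. For Nrxn2 the same contrast gave 0.33 (95% interval 0.04 to 0.61, adjusted p = 0.211), and 0.10 with the GC and length trend removed.

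Nlgn2 was called in CA3 and not in CA1, and its training difference in CA1 minus that in CA3 was -0.40 (standard error 0.103, 95% interval -0.62 to -0.19). That contrast had an unadjusted limma p of 0.00059 and an adjusted p of 0.227, and so it is not shown to differ between the subregions. Only 0.0273% of genes were called there, 4 of 14673. Between CA3 and DG the Nlgn2 contrast was 0.36 (95% interval 0.13 to 0.58, adjusted p = 0.197), and 0.13 with the GC and length trend removed. Nrxn2, by comparison, differed by 0.04 between CA1 and CA3 (95% interval -0.24 to 0.33).

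The levels of the 9 genes, averaged over training, did not separate the subregions. None of them was called between CA1 and CA3, where 0.988% of genes were called, between CA1 and DG (4.05%) or between CA3 and DG (0.00682%, which is 1 gene). The smallest adjusted p values of the limma contrasts belonged to Iqsec2 between CA1 and CA3 (log2 difference 0.12, 95% interval 0.02 to 0.22, adjusted p = 0.32) and to Gphn between CA1 and DG (-0.14, -0.27 to -0.02, adjusted p = 0.195). Gphn averaged 583.6 ± 36.2 (SD, n = 6) in CA1, 604.7 ± 24.6 (SD, n = 5) in CA3 and 652.9 ± 71.3 (SD, n = 5) in DG. Without untrained animal 1, which holds the lowest DG value, Gphn was called lower in CA1 than in DG (-0.25, adjusted p = 0.0403), whereas without untrained animal 3 the difference was -0.05. Granule cell marker sums overlapped between all 3 labels, whereas CA1 pyramidal markers were called between CA1 and CA3, and CA3 pyramidal markers between CA1 and each of the other labels.

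Per kb of the longest annotated transcript, the order of the mean levels over the 16 libraries began with Iqsec2 at 420.5 ± 29.7 (SD). Nrxn3 followed at 359.7 ± 27.3, Nlgn2 at 316 ± 27.9 and Iqsec1 at 274 ± 20.5. Nrxn2 had 260.2 ± 41.5 and Iqsec3 249.3 ± 40.5, and the lowest were Nlgn3 at 185.1 ± 6.26, Gphn at 171.4 ± 15 and Nlgn1 at 136.4 ± 9.73. Taken as mean ± SD, Iqsec2 stood clear of Nrxn3, Iqsec3 of Nlgn3, and Gphn of Nlgn1, while all other neighbours in this order overlapped. The order pools the training groups. Nrxn2 was above Iqsec1 in the 9 trained libraries (289.5 against 284.9) and below it in the 7 untrained ones (222.6 against 260). Among the neuroligins, the inhibitory Nlgn2 was the highest on this scale. With the training groups pooled, Nrxn2 and Iqsec3 varied most between libraries, with coefficients of variation of 15.9% and 16.3%. These were 7.9% and 8.2% over the 9 trained libraries alone. Over the 7 untrained ones they were 11.5% and 9.0%, beside 10.4% for Nlgn2 and 9.9% for Gphn.

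**Figure D5:**
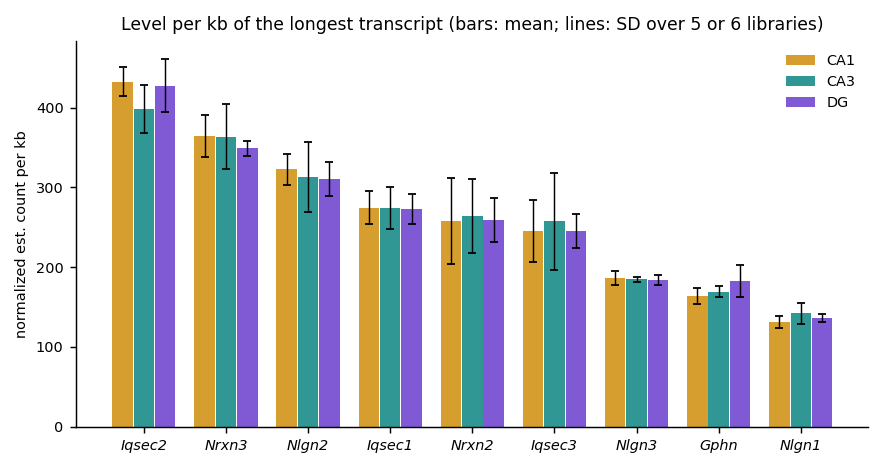
Mean normalized estimated count per kb of the longest transcript (bars, from 0) for the 9 genes by labelled subregion, with lines for the SD over 5 or 6 libraries of both training groups. Iqsec2 is the highest and Nlgn1 the lowest under every label, and the SD ranges of a gene's 3 bars overlap.

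Partners of these genes were followed in 4 lists. The first holds 22 other ligands and partners of neurexins, such as the LRRTM and cerebellin families, of which 20 were tested. In CA1, 2 of them were called higher and 1 lower, with none called in CA3 or DG, beside 5.23%, 0.852% and 3.39% of all genes for CA1, CA3 and DG in turn. The list median lay between -0.06 and 0.11, against -0.01 to 0.00 over all genes. Adgrl2, a latrophilin, fell by 0.79 on the log2 scale in CA1 (standard error 0.124, adjusted p = 0.00107), from 470.2, 330.6 and 442.3 in untrained to 265.2, 231.7 and 215.7 in trained libraries. With the spread estimated from all 16 libraries its adjusted p was 0.133, so that the call was lost. The CA1 pyramidal marker sum was lower in the same libraries, and its part in this difference was not tested. Clstn2, a calsyntenin that binds neurexins, rose by 0.34 in CA1 (standard error 0.057, adjusted p = 0.00122), from 1603, 1746 and 1666 to 1995, 2150 and 2189. The CA1 call of Adgrl1 (0.18, adjusted p = 0.0219) was lost without untrained replicates 1 or 2 or trained replicates 2 or 3 (adjusted p of 0.0591 to 0.163). It was also lost with the GC and length trend removed (0.11, adjusted p = 0.122) and with the spread of all 16 libraries (adjusted p = 0.0941). Over all subregions 3 of the list were called higher and 1 lower, beside 10.3% of all genes. Among them Lrrtm1, a postsynaptic neurexin ligand, was at 0.25 (adjusted p = 0.00232), and at 0.21 without untrained animal 1 (adjusted p = 0.0518). The 1 gene called lower was its paralog Lrrtm2, at -0.16 (adjusted p = 0.0253).

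The second list holds 14 regulators of neurexins and neuroligins, which include presynaptic adaptors and a protease that sheds them. In CA1, 1 was called higher and 1 lower, in CA3 1 was called higher, in DG 1 was called lower, and over all subregions 2 were called higher. These counts of 14 stand beside 5.23%, 0.852%, 3.39% and 10.3% of all genes, so that nothing particular to the list is read from 1 or 2 calls. The list median was 0.05 in CA1, 0.03 in CA3, -0.06 in DG and -0.02 over all subregions. Caskin1, a binding partner of the neurexin adaptor CASK, was the 1 gene of the 4 lists called in CA3, at a log2 fold change of 0.61 (standard error 0.084, adjusted p = 0.0101). Its values were 785.5 and 749.5 in untrained and 1145, 1279 and 1111 in trained mice. Without untrained replicate 1, untrained replicate 2 or trained replicate 2 its adjusted p was 0.069, 0.0611 and 0.0988, and with the GC and length trend removed it was 0.0639. The other named calls on this list were Adam10 (-0.25, adjusted p = 0.0313) and Apba2 (0.23, adjusted p = 0.0499) in CA1 and Magi2 (-0.24, adjusted p = 0.0497) in DG. Each of the 3 lost its call when any of 4 or more single libraries was left out, with an adjusted p of up to 0.16, 0.225 and 0.195, and also with the GC and length trend removed (0.0536, 0.0559 and 0.131).

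The third list holds 20 partners of gephyrin and of the inhibitory postsynapse, of which 19 were tested. In CA1, 2 were called higher, in CA3 none, in DG 1 higher and 2 lower, and over all subregions 5 higher and 1 lower, beside 5.23%, 0.852%, 3.39% and 10.3% of all genes. The list median was between 0.01 and 0.04. Dynll2, a dynein light chain that binds gephyrin, was higher in trained mice in CA1 (0.41, standard error 0.063, adjusted p = 0.000591) and in DG (0.54, standard error 0.065, adjusted p = 0.000346). Its DG values were 1660 and 1796 in untrained and 2474, 2594 and 2491 in trained mice. Insyn1, a component of the inhibitory postsynapse, rose by 0.35 in CA1 (standard error 0.072, adjusted p = 0.00523), from 679.4, 614.2 and 708.3 to 844.0, 878.2 and 834.7. In DG, Shisa7, a GABA-A receptor auxiliary protein, was lower in trained mice (-0.32, standard error 0.078, adjusted p = 0.037), with 1758 and 1629 in untrained and 1422, 1430 and 1229 in trained libraries. Its call was lost without untrained replicate 1 or any trained replicate (adjusted p of 0.0798 to 0.173) and with the spread of all 16 libraries (adjusted p = 0.0543). Over all subregions Dynll2 (0.46, adjusted p = 1.52e-05) and its paralog Dynll1 (0.22, adjusted p = 0.00551) were called higher. Without untrained animal 1 the adjusted p of Dynll1 was 0.115.

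The fourth list holds 19 Arf GTPases and Arf exchange factors outside the IQSEC family. In CA1 and in DG 1 was called higher, in CA3 none, and over all subregions 5 were called higher, with none lower. The share of all genes called was 5.23% in CA1, 3.39% in DG, 0.852% in CA3 and 10.3% over all subregions, and 1 of 19 in CA1 or DG is near it. The list median was between 0.02 and 0.10. The 1 gene was Psd3, an exchange factor for ARF6, in both subregions. Its CA1 values were 6165, 5649 and 6017 in untrained and 6870, 6835 and 7003 in trained mice (log2 fold change 0.22, standard error 0.044, adjusted p = 0.00507). With the spread of all 16 libraries the call was lost (adjusted p = 0.057). In DG, values of 5900 and 6008 stood against 6712, 7047 and 6955 (0.21, standard error 0.053, adjusted p = 0.037), a call lost without untrained replicate 1 or any trained replicate (adjusted p of 0.064 to 0.149), with the spread of all 16 libraries (0.0982) and when replicate numbers served as blocks (0.0924). Over all subregions Psd3 was at 0.24 (adjusted p = 0.000969) and Arfgef2, an exchange factor of the secretory pathway, at 0.15 (adjusted p = 0.0285). Arfgef2 lost its call without untrained animal 1 (adjusted p = 0.109), untrained animal 2 (0.0987), trained animal 2 (0.146) or untrained CA3 replicate 1 (0.0762).

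Across the 16 libraries, the log2 values of Nrxn2 and Iqsec3 had a Pearson r of 0.84, those of Nrxn2 and Iqsec1 of 0.81 and those of Nrxn3 and Iqsec1 of 0.76. Nlgn2 had an r of 0.68 with Iqsec3 and of -0.09 with Gphn, and Iqsec3 had an r of 0.31 with Gphn. These are descriptions over points that share training groups, animals and the GC trends above. Among 14672 other genes, the closest in pattern to Iqsec3 were Ttbk1 (r = 0.941), Srcin1 (0.932) and Atp6v0a1 (0.931). Those closest to Nlgn2 were Mast2 (0.869), Irgq (0.852) and Col16a1 (0.833), and those closest to Gphn were Ensa (0.899), Mrpl28 (0.892) and Slc37a4 (0.88).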

How the data were processed

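Bulk RNA-seq of rRNA-depleted total RNA was analysed for 16 libraries from 3 trained and 3 untrained mice. The authors used STAR for alignment and Salmon for gene quantification, and the deposited signal is an estimated count scaled between libraries by a factor not given in the sources used here. Rescaling by the median of ratios changed no call, and library sums lay between 7607326 and 7984931, so sums do not show depth. No interval rests on counts, which are unknown. The submitters' processing notes name GRCm38, bcl2fastq 2.20, FastQC, Trim Galore and STAR. The authors compared groups with DESeq2 on counts. Whole reads could not be recovered, so a test on the log scale was used instead.

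limma 3.58.1 in R 4.3.3 was fitted to log2(value + 2) with a mean-variance trend and robust estimation, two-sided, with Benjamini-Hochberg adjustment over all genes tested, so that fold changes of low genes are understated. Genes needed a value of at least 10 in as many libraries as the smallest group holds. Combined comparisons had the subregion as a term. The procedure was tested on simulated data. Positions, transcript lengths and GC content came from GENCODE for GRCm38, which matched 24464 symbols (98.0%), and promoters from RefSeq.

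The genes and lists were chosen with earlier results of these data known. Named were all 9 genes, from each of the 4 lists at most 3 genes per training comparison with the smallest adjusted p whose groups did not overlap, the 3 genes closest in pattern to Nlgn2, Gphn and Iqsec3, and Xist. Some genes that this rule names are counted in their lists but not reported here. By label, libraries with one number and training group come from one animal in different subregions. Their deviations from the group means had correlations of -0.108 to 0.092 (14 pairs). Alternatives were median-of-ratios rescaling, no filter, a pseudocount of 0.5, removal of GC and length trends, the spread of all libraries, blocks, the many-0 term, the sex-linked covariate and each animal or doubtful library left out. Leaving out untrained CA3 replicate 1 with trained DG replicate 3, and the animal as a block in the combined comparison, were added after seeing the data.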

Additional observations from a re-analysis of the deposited data

Results flagged for a closer look

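One result was singled out because the effect of training differed between a pair of subregions by a test of that difference. The training difference of Iqsec3 in CA3 minus that in DG was 0.51 on the log2 scale (limma interaction, standard error 0.100, adjusted p = 0.0346). In CA3 all 3 trained libraries (2407 to 2477) were above both untrained ones (1502 and 1590), and in DG the trained values (1921 to 2226) overlapped the untrained ones (1745 and 1977). Leaving out any animal other than untrained animal 3 took the adjusted p to between 0.059 and 0.187. Both untrained DG libraries were among the 7 with many genes at 0, whereas no untrained CA3 library was, and the part of this split in the result was not tested.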

How the results depend on the processing

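No called result reversed under any alternative. Over the 9 genes, 987 gene-by-setting values stayed on the same side of the threshold with the same sign, 19 lost a call, 15 gained one, and 86 changed sign without a call in either fit. In CA1, 710 genes were called, 1877 without the low-value filter and 339 to 905 with an animal left out (2 to 3 of the 9 genes). In CA3, 118 were called, 28 with GC and length trends removed (1 of the 9), 422 with the spread of all 16 libraries, 1160 with the replicate number as a block and 7 to 680 with an animal or untrained CA3 replicate 1 left out (0 to 4 of the 9). In DG, 473 were called and 28 to 1758 with an animal left out (0 to 2 of the 9). Over all subregions, 1517 were called, 0 with the sex-linked covariate (0 of the 9), 958 without untrained CA3 replicate 1 and trained DG replicate 3, and 438 to 1843 in the leave-outs (2 to 4 of the 9), and GC and length removal called 6 of the 9. The difference between CA1 and CA3 gave 4 genes, 9 with GC and length removed and 0 to 69 in the leave-outs. That between CA1 and DG gave 404, 2039 without the filter and 24 to 448 in the leave-outs (0 to 1 of the 9). That between CA3 and DG gave 24, and 0 to 72 in the leave-outs (0 to 1 of the 9). CA1 against CA3 gave 145 and 52 to 174 in the leave-outs, CA1 against DG 594, 391 without the filter and 113 to 425 (0 to 1 of the 9), and CA3 against DG 1, 2 without the filter, 0 with GC and length removed, 23 with the many-0 term and 0 to 21. The causes of these moves were not tested, other than that leave-outs test fewer libraries. The replicate number pairs trained with untrained libraries that share only a number (correlations of their deviations from -0.18 to 0.119 over 7 pairs), and as a block it called Iqsec1 in CA3 (adjusted p = 0.00768). The animal as a block (consensus correlation 0.007) changed no call among the 9 genes in the 3 differences of the training effect and the 3 comparisons of subregions. In the combined comparison this block was added after seeing the data (consensus correlation -0.035) and called Iqsec1 as well (0.14, adjusted p = 0.0461), with Nrxn2 and Iqsec3 still called. With 2 untrained libraries in CA3 and in DG, the main fits did not tell the differences of Gphn and Nlgn1 from the spread. In CA1, with 3 untrained libraries, these genes did not pass either, and the part of the number of libraries was not tested.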
